A study of Mus musculus with 18 samples.

Results

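CpG methylation of mouse embryonic stem cells (ESCs) was compared between Dnmt1 KO and control at day 1, the first day sampled after deletion of Dnmt1, to locate where the early loss of methylation was largest and smallest. The comparison took the 2 Dnmt1 KO and the 2 control libraries that the labels place at day 1, which were 4 of the 18 whole-genome bisulfite sequencing (WGBS) libraries of the series. The series follows both genotypes at days 1, 3, 6, 9 and 11. The control group is labeled as wild-type ESCs of the strain E14. The Dnmt1 KO group carries the same strain label, whereas the methods describe C57BL/6 ESCs with floxed Dnmt1 alleles, grown in serum with LIF, in which Cre recombinase was induced by tamoxifen. Whether the controls were floxed cells without tamoxifen or a separate line is not said, so genotype, tamoxifen and cell line cannot be told apart in any difference below. Replicates are numbered in the labels, and nothing says that they came from separate cultures, so no p-value below measures the spread between cultures. The exact permutation tests compare whole libraries. The tests of tiles and gene bodies also rest on the number of calls, with a spread shared across features, and their p-values do not measure the spread between the day 1 libraries alone.

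DNMT1 is the maintenance methyltransferase. After each round of replication the parental strand of a CpG still carries its methyl group and the daughter strand does not, and DNMT1, guided by UHRF1 to such hemimethylated sites, restores the missing group. When maintenance stops, methylation is diluted with every division, whereas CpG islands, the CpG-dense stretches at many gene starts, are mostly unmethylated to begin with. The de novo enzymes DNMT3A and DNMT3B can add methyl groups to unmodified CpGs, and the TET enzymes oxidize them.

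CpGs were sorted by local density, counted as the CpGs in the 250 bp to each side with the CpG itself, and by the bases directly before and after the CG. The following stretches of the NCBIM37 reference show sparse and dense examples from these scales and the 2 kinds of sequence that stood out in tiles. All are on the plus strand, and capitals mark every CpG. The first lies between genes on chromosome 4 (chr4:61463463-61463584) and holds a lone CpG with A on each side of it. The second is exonic sequence of Dux, a gene present in many near-identical copies, on chromosome 10 (chr10:57687247-57687368), where the central CpG has 27 CpGs within 250 bp. The third is 1 unit of a tandem repeat on chromosome 2 (chr2:98506927-98507160) that drew more calls than any other stretch. The fourth is part of the CpG island at the start of Zfp821 on chromosome 8 (chr8:112229320-112229519), which overlaps an exon and holds 31 CpGs.
sparse CpG, A on both sides: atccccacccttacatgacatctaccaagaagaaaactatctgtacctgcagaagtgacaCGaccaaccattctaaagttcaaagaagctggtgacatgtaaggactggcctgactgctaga
dense CpG, G and C beside it: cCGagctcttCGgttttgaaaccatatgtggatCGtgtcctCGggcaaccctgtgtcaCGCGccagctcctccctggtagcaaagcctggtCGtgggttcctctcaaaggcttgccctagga
tandem repeat unit: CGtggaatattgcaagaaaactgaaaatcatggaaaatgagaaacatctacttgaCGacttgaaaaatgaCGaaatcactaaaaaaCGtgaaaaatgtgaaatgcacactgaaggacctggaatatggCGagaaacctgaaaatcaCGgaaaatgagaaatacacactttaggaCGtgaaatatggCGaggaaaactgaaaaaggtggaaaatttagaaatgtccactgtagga
Zfp821 island: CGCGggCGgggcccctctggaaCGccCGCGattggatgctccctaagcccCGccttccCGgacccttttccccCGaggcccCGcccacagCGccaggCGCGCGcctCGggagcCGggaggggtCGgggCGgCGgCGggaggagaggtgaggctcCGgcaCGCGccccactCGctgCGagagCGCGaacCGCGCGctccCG

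The control libraries of day 1 held 9382178 and 10031839 calls and the Dnmt1 KO libraries 9358771 and 10881547, each call being 1 read over 1 cytosine, methylated or not. That is 1.21 to 1.24 calls per listed cytosine, so single CpGs were not compared. The level in the mitochondrial genome, a background for incomplete conversion, was 0.244% to 0.293%. The Dnmt1 label was checked on a segment of the gene at chr9:20744012-20745971, found as the longest run of CpGs without a call in the 7 Dnmt1 KO libraries of later days. It received 21 and 28 calls in the controls of day 1 and 2 and 2 calls in Dnmt1 KO, which were 0.617% of the calls of the gene (95% exact interval 0.0748% to 2.21%) in replicate 1 and 0.423% (0.0512% to 1.52%) in replicate 2, against 1.74% to 7.49% in the 7 later controls. These intervals cover counting error only. Control replicate 2 stood apart from the other day 1 libraries, with 5.49% of its calls at dense CpGs (25 or more within 250 bp) against 4.31% to 4.79%, and with 17.3 calls on chromosome X per 1000 autosomal calls against 19.5 to 19.9. As a check of the line, 4902 sparse CpGs with no methylated call among at least 6 in the later controls, in otherwise methylated tiles, were read at day 1. Their level was 19.4% ± 1.23 (SD, n = 2) in control and 17.1% ± 0.489 (SD, n = 2) in Dnmt1 KO, so these CpGs were no higher in Dnmt1 KO than in control. Around 14 starts of pluripotency genes the pooled level was 7.98% and 10.5% in control and 10.3% and 6.70% in Dnmt1 KO, low in all 4 libraries, and WGBS offers no further check of the cell type.

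Autosomal methylation was lower in both Dnmt1 KO libraries than in both controls. The level was 77.3% and 74.8% in control and 69.9% and 70.2% in Dnmt1 KO. The means were 76.1% ± 1.82 (SD, n = 2) and 70.1% ± 0.186 (SD, n = 2), a difference of -6.01 points or 7.90% of the control level, and the nearest libraries of the 2 groups lay 4.59 points apart. An exact two-sided permutation test of 2 against 2 libraries gave p = 0.333, the smallest it can give. Against all 9 controls of the series, which ranged from 71.4% to 79.0%, both Dnmt1 KO libraries were again below every control (exact permutation test, p = 0.0364, the smallest possible). The difference was -7.30 points without control replicate 2 and -4.72 points without control replicate 1. It was -5.98 points on the plus strand and -6.04 on the minus strand. Against the 7 controls of days 1 to 9 alone the difference was -6.52 points (exact permutation test, p = 0.0556, again the smallest possible).

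**Figure D1:**
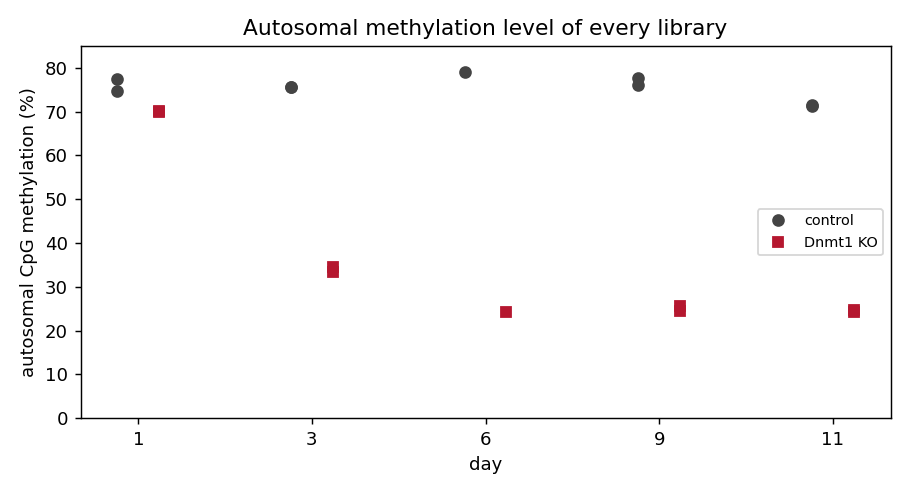
Autosomal CpG methylation (y axis, percent) of every library against day (x axis), 1 point per library, with control as circles and Dnmt1 KO as squares. At day 1 the Dnmt1 KO libraries sit at 69.9% and 70.2%, below both controls and below the lowest of the 9 controls at 71.4%.

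The relative loss, meaning the control mean minus the Dnmt1 KO mean as a percent of the control mean, was larger the sparser the CpGs, up to 39 CpGs within 250 bp. The values that follow leave out cytosines with over 20 calls in any day 1 library, among them the tandem repeats described further below. The relative loss was 10.3% at CpGs with no other CpG within 250 bp, 9.74% with 2 to 3 CpGs, 8.90% with 4 to 6, 8.36% with 7 to 9, 8.01% with 10 to 14, 7.32% with 15 to 24 and 5.91% with 25 to 39, and it was 8.14% over all autosomal CpGs. In points, lone CpGs went from 80.2% to 71.9%, a difference of 8.26 points, and CpGs with 25 to 39 CpGs from 14.5% to 13.6%. At 40 or more CpGs, the cores of CpG islands, the levels were 1.68% and 1.56%, a relative loss of 6.95%, which is above that of the step before. In replicate 1 the relative loss fell over the 7 steps from 12.1% to 0.538%. In replicate 2 it fell over the first 5 steps, from 8.49% to 6.56%, and was 6.98% at 15 to 24 CpGs and 11.17% at 25 to 39.

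The bases beside the CpG also ordered the loss. With A or T on both sides the relative loss was 9.41%, with A or T on 1 side 8.12%, and with C or G on both sides 6.66%. CpG-dense sequence is rich in C and G, so the flanks were compared within each step of density. Among lone CpGs, those flanked by A or T went from 78.2% and 76.0% in control to 67.8% and 69.3% in Dnmt1 KO, a relative loss of 11.08%. Lone CpGs flanked by C or G went from 84.8% and 82.7% to 76.0% and 76.6%, a relative loss of 8.93%, and those with mixed flanks lay between at 9.88%. The groups did not overlap in any of these. The same order held at 2 to 3 CpGs (10.6%, 9.46% and 8.36%), at 4 to 6 (9.65%, 8.75% and 7.93%), at 7 to 9 (9.11%, 8.23% and 7.70%), at 10 to 14 (8.62%, 8.02% and 7.44%) and at 15 to 24 (7.84%, 7.47% and 6.82%). From 25 CpGs up the order was no longer seen. The relative loss at lone CpGs flanked by A or T was 13.3% in replicate 1, which does not involve control replicate 2, and 8.82% in replicate 2.

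Density classes also differ in how methylated they are at the start, so CpGs were also chosen by libraries outside the comparison, as those with at least 3 calls, all methylated, in the pooled controls of days 3, 6 and 9. These 3508316 CpGs stood at 86.3% and 84.6% in control and 77.9% and 78.7% in Dnmt1 KO, a relative loss of 8.41%. By density the relative loss was 9.63% at lone CpGs, 9.30% at 2 to 3, 8.59% at 4 to 6, 7.79% at 7 to 9, 7.37% at 10 to 14, 6.49% at 15 to 24 and 3.73% at the 6661 CpGs of the step of 25 to 39. In this last class the levels were 84.3% and 83.5% in control and 80.9% and 80.7% in Dnmt1 KO, a difference of -3.13 points, where methylated lone CpGs had -8.02. The order over these 7 steps was present in replicate 1 (11.06% to 4.06%) and in replicate 2 (8.18% to 3.38%), which share no library. At the 103 such CpGs of the step of 40 or more the groups overlapped. Of the flanks, TCGA (9.32%), ACGA (9.23%) and ACGT (8.96%) had the largest relative loss, and CCGG (7.36%), GCGC (7.38%) and CCGC (7.43%) the smallest. CpGs with no methylated call in the same later controls showed no gain, with 13.0% ± 1.01 (SD, n = 2) in control and 12.0% ± 0.0123 (SD, n = 2) in Dnmt1 KO. Their relative loss did not follow the order by density. It was 12.3% at lone CpGs, 10.3% at 15 to 24 and 13.7% at 25 to 39, the lowest and highest steps being the last 2. The pooled value of 7.15% lay below every step.

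**Figure D2:**
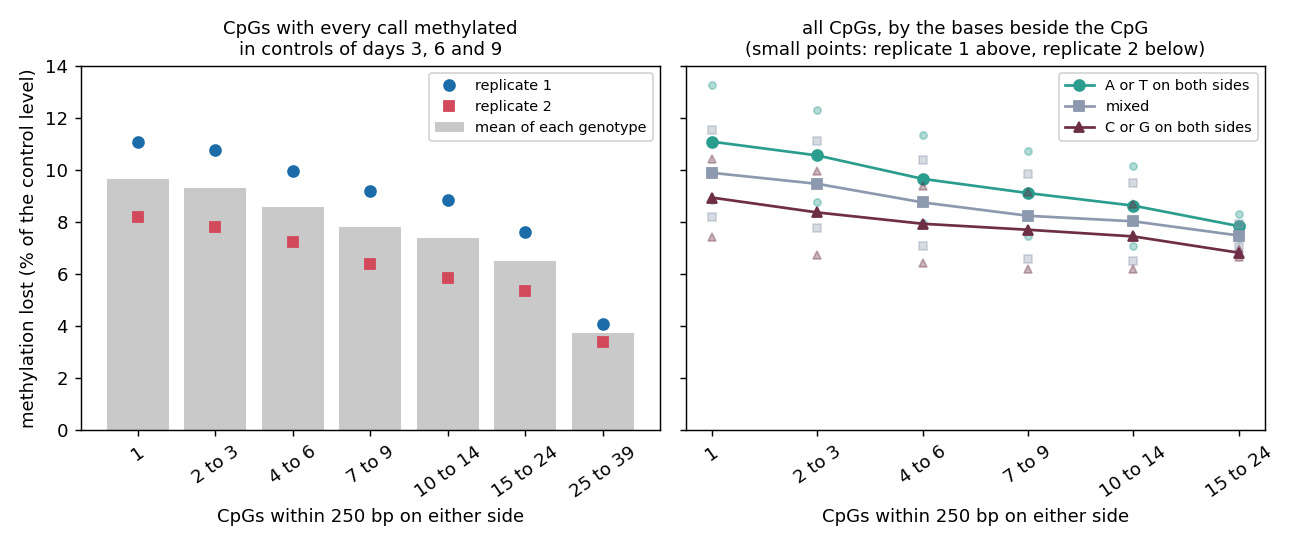
Relative loss at day 1 (y axis, percent of the control level) against CpGs within 250 bp (x axis), at left for CpGs fully methylated in later controls (bars from group means, points for each replicate number), at right for all CpGs by flank (lines from group means, small points for each replicate number). Bars fall from 9.63% to 3.73%, and at right the A or T line lies above the mixed line and the C or G line at every step, from 11.08% against 8.93% to 7.84% against 6.82%.

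Whether this unevenness exceeded the spread of control libraries was read from ratios of 2 classes within a library, in 9 ratios chosen after the data were examined. The level at lone CpGs as a percent of that at 10 to 14 CpGs was 103.5 and 103.6 in the day 1 controls and 100.5 and 101.4 in Dnmt1 KO, and it was 102.8 to 106.6 over the 9 controls. Both Dnmt1 KO libraries lay below all 9 controls, and did so also for 2 to 3, 4 to 6 and 7 to 9 CpGs over 10 to 14 CpGs. Each of these 4 ratios gave p = 0.0364 in the exact two-sided permutation test of 2 against 9, the smallest possible, and 0.0818 after Benjamini-Hochberg adjustment over the 9 ratios. The 4 ratios share their denominator, so they are not separate results. With all cytosines, the level at 10 to 14 CpGs relative to the autosomes was itself above all 9 controls (exact permutation p = 0.0364). The relative levels of the 4 sparser steps, in the same order, gave exact permutation p of 0.0727, 0.0727, 0.436 and 0.4. The ratio of A or T flanks to C or G flanks among sparse CpGs (under 10 within 250 bp) was 95.2 in both controls and 92.9 and 93.4 in Dnmt1 KO, below the 93.8 to 95.2 of the 7 controls of days 1 to 9 (exact permutation p = 0.0556, the smallest possible). The controls of day 11 reached down to 92.4, and against all 9 controls the exact permutation p was 0.255. For chromosome X over the autosomes the groups of day 1 overlapped, with 101.1 and 99.99 against 99.6 and 100.8.

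Methylation around gene starts was read in steps of distance. From 500 bp upstream to the start of a protein-coding gene the level was 16.2% in control and 15.1% in Dnmt1 KO, and over the first 500 bp of the gene it was 11.27% and 11.11%, where the groups overlapped. From 2 to 5 kb upstream it was 74.5% and 67.4%, a relative loss of 9.44%, and from 1 to 2 kb downstream, on the shoulder of the unmethylated start, it was 51.09% and 46.1%, a relative loss of 9.81%. Distance from the nearest dense CpG gave the same shape. Dense CpGs themselves had 7.98% and 7.63% with overlapping groups, CpGs within 500 bp of them 35.7% and 32.2% (9.64%), those at up to 1 kb 61.9% and 55.6% (10.2%), and those beyond 50 kb 82.6% and 75.4% (8.74%). By the starting level of the 10 kb tile around a CpG, the relative loss ran from 7.12% for tiles at 20% to 30% to 9.34% for tiles at 50% to 60%, with 8.60% for tiles at 80% to 90%, which held most CpGs.

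**Figure D3:**
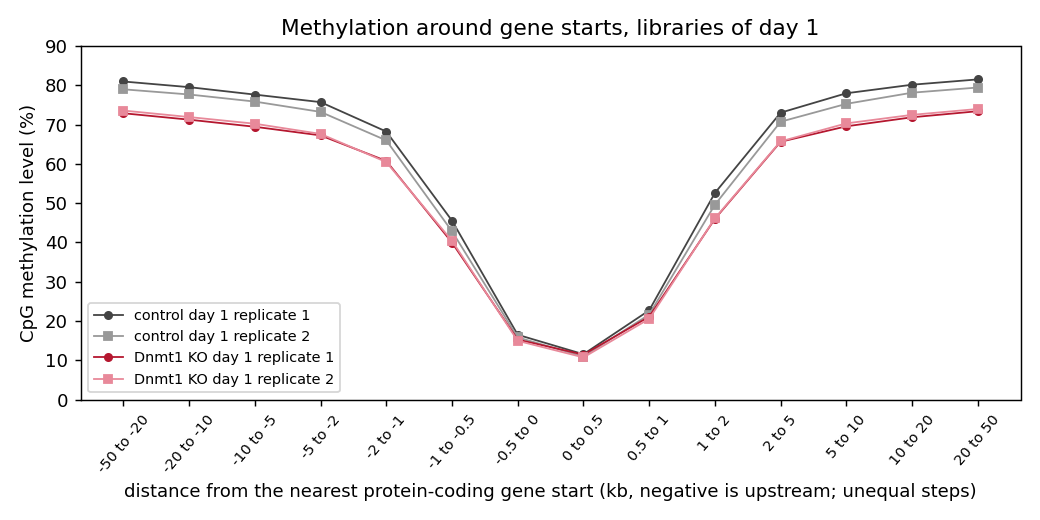
CpG methylation (y axis, percent) against distance from the nearest protein-coding gene start (x axis, kb in unequal steps, negative is upstream), 1 line per day 1 library. The 4 lines meet at the start, at 11.27% and 11.11% on average, and lie apart from 2 kb outward, at 74.5% and 67.4% from 2 to 5 kb upstream.

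Relative to the autosomal level of the same library, 70 classes of CpGs were compared between the 2 Dnmt1 KO and the 9 control libraries, and none passed an adjusted p under 0.05 (exact permutation test), while 10 had an unadjusted p under 0.05. The smallest p of 2 against 9 libraries, 0.0364 in the exact test, passes the adjustment over 70 classes only where at least 51 classes reach it. With cytosines over 20 calls left out there were 5, of which 3 were among the 10, namely CCGG, chromosome 13 and the third of the 5 classes of GC share. Of the 10, those higher in Dnmt1 KO than in all controls were CpGs of intermediate density (10 to 24), the step of 10 to 14, CCGG, and promoters without a dense CpG, whose relative level was 97.7 in both Dnmt1 KO libraries and 95.8 to 97.5 in the 9 controls. Those lower were chromosomes 12, 13 and 16 and 3 of the tile classes of middle GC share or CpG number. With these cytosines left out, introns had a relative loss of 8.46%, intergenic CpGs 8.70% and CpGs over 100 kb from a gene 8.95%. Exons had 6.44%, at 63.6% and 61.2% in control and 58.8% and 58.0% in Dnmt1 KO. Promoters had 5.88% as a whole, but 8.76% where they held a dense CpG and 8.63% where they did not, so that the pooled value is below both of its parts. With all cytosines the value for promoters was 3.22%, with overlapping groups at 38.5% and 34.88% in control and 36.1% and 34.95% in Dnmt1 KO. When sparse CpGs alone were taken, exons stood at 100.8 and 100.6 percent of introns in control and 101.0 and 101.2 in Dnmt1 KO (exact permutation p = 0.182 against 9 controls and 0.0556, the smallest possible, against the 7 of days 1 to 9). By chromosome, again without cytosines over 20 calls, the relative loss ran from 7.94% on chromosome 17 to 8.53% on chromosome 19 among the autosomes and was 8.47% on X.

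The relative loss at tandem repeats was below that over all CpGs. Of 1082 autosomal CpGs with over 20 calls in a day 1 library, 428 lay in repeats with a unit of 234 bases, the unit length of the mouse major satellite, the repeat of pericentromeric heterochromatin. They lay on chromosomes 2 and 9 and drew 4.16% and 3.201% of autosomal calls in control and 4.10% and 3.78% in Dnmt1 KO. Whether reads from copies missing from the reference were placed there was not tested. Their level was 84.5% and 83.0% in control and 78.7% and 78.9% in Dnmt1 KO, a relative loss of 5.82% against 8.14% at CpGs with 20 calls or fewer. The 5898 CpGs of such units with fewer calls had 4.74%, and the 654 CpGs with over 20 calls outside the units had 4.06%. The unit printed above was at 86.0% and 84.1% in control and 79.9% and 80.1% in Dnmt1 KO. Within the repeats the loss was uneven between sites of the unit, with 6.90% at ACGT and 4.79% at ACGA. Relative to all other CpGs the repeats stood at 109.6 and 111.3 percent in control and 113.4 and 113.1 in Dnmt1 KO, inside the range of the 9 controls, 109.2 to 118.1 (exact permutation p = 0.727). At day 3 the repeats were at 83.8% in control and 44.2% in Dnmt1 KO, a relative loss of 47.2% against 55.9% elsewhere, a value from other libraries with the same direction.

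In fixed tiles the loss was spread over nearly the whole genome. Of 263909 tiles of 10 kb, 204437 had at least 10 calls in each day 1 library, and 78.1% of them were lower in Dnmt1 KO, with a median difference of -6.94 points and 5% and 95% points at -22.5 and 8.62. Of 26398 tiles of 100 kb, 23680 had at least 100 calls per library, and 95.5% were lower, with a median of -6.83 points and 5% and 95% points at -12.8 and -0.266. A quasi-binomial model over all 18 libraries with limma moderation called a tile at a Benjamini-Hochberg adjusted p under 0.05. It called 84 tiles of 10 kb, 75 lower and 9 higher, which is 0.0411% of those tested, and 6453 tiles of 100 kb, 6441 lower and 12 higher, which is 27.3%. With sparse CpGs alone, an alternative added after the data were examined, 99.1% of the 100 kb tiles were lower, 13076 of 23079 were called lower and 0 higher (56.7%), and 15100 had an unadjusted p under 0.05. The sparse-only tests of tiles and gene bodies were not repeated with a library left out, with the 4 day 1 libraries alone or with limma on the percent. How far their counts depend on these choices is therefore not known. The counts over all CpGs depend on single libraries. At 10 kb there were 135 calls without Dnmt1 KO replicate 1 and 143 without Dnmt1 KO replicate 2. At 100 kb there were 468 without control replicate 1, 2400 without Dnmt1 KO replicate 1 and 2942 without Dnmt1 KO replicate 2. The 100 kb calls depend on the model too, with 6 from the 4 day 1 libraries alone and 2 from limma on the percent.

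To ask where the loss was larger or smaller than in comparable places, each tile was set against tiles of the same starting level in the same library, and the deviation was tested with limma. No tile passed an adjusted p under 0.05, while 48 tiles of 10 kb did in the alternative with a replicate block. At an unadjusted p under 0.05 there were 10150 tiles of 10 kb (4.97% of those tested) and 1220 tiles of 100 kb (5.16%). The matched difference of 100 kb tiles had an SD of 3.82 points, and contrasts between replicates of the same 4 libraries had SDs of 3.84 and 3.82. Over 23627 tiles, which share their libraries and depth, the matched difference of replicate 1 correlated with that of replicate 2 at r = -0.00011. When tiles were ordered by replicate 1 and cut into 10 equal sets, the set with the largest matched loss had a mean of -10.0 points there and 0.167 points in replicate 2, and the set with the smallest loss had 9.30 and 0.158. Ordered by replicate 2, the sets at the ends had -9.39 and 9.81 points there and -0.266 and -0.333 in replicate 1. At this depth, sets of 100 kb tiles with a larger or smaller loss in 1 replicate were not detectable as such in the other. With day 3, whose controls also enter the starting level, the matched difference of day 1 correlated at r = 0.0395. The end sets ordered by replicate 1 had matched differences of -0.904 and -0.0149 points at day 3, and those ordered by replicate 2 had -0.797 and -0.835. The 10 kb matched test called 223 tiles without control replicate 1, 192 without control replicate 2 and 1 without Dnmt1 KO replicate 2.

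**Figure D4:**
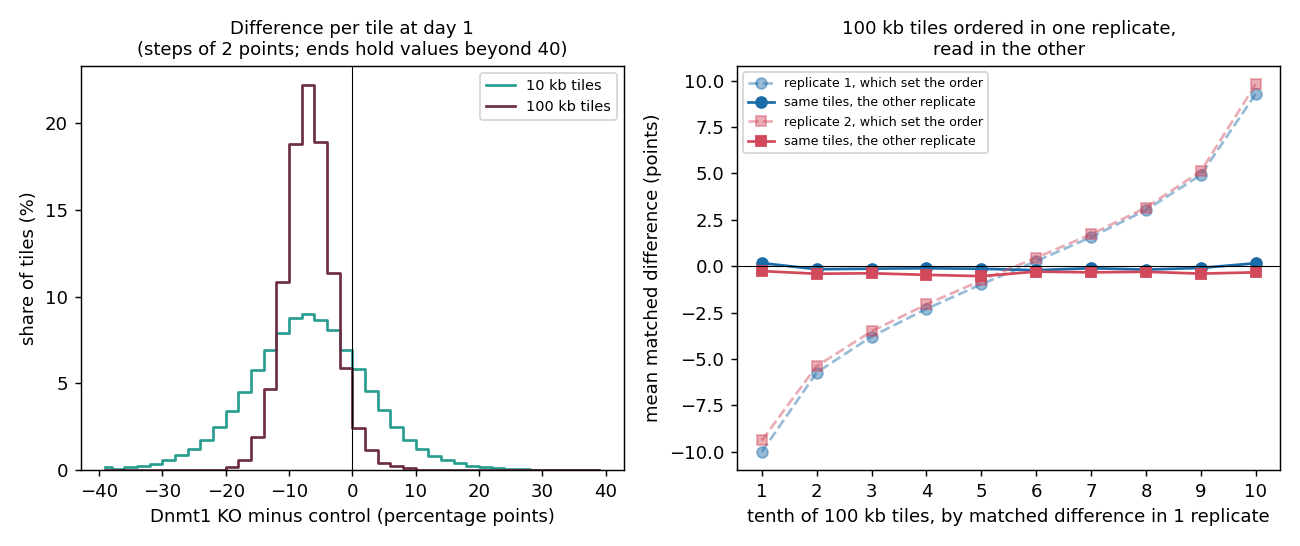
At left, the share of tiles (y axis, percent) by Dnmt1 KO minus control at day 1 (x axis, points) for 10 kb and 100 kb tiles, at right the mean matched difference (y axis, points) of 100 kb tiles in 10 equal sets ordered in 1 replicate (dashed) and read in the other (solid). The 100 kb tiles center at -6.83 points, and sets that span -10.0 to 9.30 points in the replicate that ordered them stay near 0 in the other.

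The called 10 kb tiles differed between genotypes also in which of their CpGs had been read. Among the 75 lower tiles of 10 kb the median difference was -39.4 points, and sparse CpGs made up a median of 60.3% of the calls in control and 35.5% in Dnmt1 KO. With sparse CpGs alone their median difference was -16.3 points, and 4 of the 75 were still called. The lowest p among the 75 fell on tiles with very many calls, at Gm10801 on chromosome 2 and at Gm11167 and Gm10722 on chromosome 9. These differed by -5.14, -4.64 and -4.35 points, less in size than the median of -6.94 over all 10 kb tiles. With cytosines over 20 calls left out, 61 tiles were called lower. Among the 9 higher tiles the median was 35.8 points, sparse CpGs made up 22.8% of the calls in control and 62.8% in Dnmt1 KO, and with sparse CpGs alone the median was -1.36 points with none of 8 tested called. The 12 higher tiles of 100 kb likewise went from a median of 10.4 to -3.36 points, with none of 10 called. The 6441 lower tiles of 100 kb had close shares of calls at sparse CpGs, 81.6% in control and 81.4% in Dnmt1 KO. They went from a median of -10.2 to -9.69 points, with 5934 of 6388 still called, where 56.7% of all 100 kb tiles were called with sparse CpGs. Both tests share most calls of these tiles, so they are not separate results. Over all 10 kb tiles, sparse CpGs alone gave 15 lower and 0 higher (0.00758%), with adjusted p from 0.0290 to 0.0486 and differences of 30.3 to 44.9 points. All 15 had the same fitted dispersion, 1.46, so the replicate spread of the single tile did not enter. The median over all 10 kb tiles at sparse CpGs was -7.36 points. Set against tiles of the same starting level, sparse CpGs alone gave 0 calls at 10 kb (smallest limma adjusted p = 0.643). The 15 tiles were named after their values were seen. Of these, 10 overlap genes, among them Dlg5, a scaffold protein gene, with 88.7% and 86.5% in control and 51.0% and 45.7% in Dnmt1 KO (chr14:24950001-24960000), and Ptprg, a receptor tyrosine phosphatase gene, with 87.5% and 89.8% in control and 55.3% and 53.8% in Dnmt1 KO (chr14:12400001-12410000). These 2 tiles were chosen for their difference, so that their groups lie apart is no further result. Neither was called over all CpGs, and each value rests on 35 to 62 calls.

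By the naming rule, the tiles with the lowest p in each direction of the matched test were taken, none of which passed the adjustment. The 10 kb tile with the lowest p for a larger loss held the start of Zfp821, a zinc finger gene (chr8:112220001-112230000). Its level was 85.1% and 82.2% in control and 44.5% and 31.2% in Dnmt1 KO, a matched difference of -42.7 points (SE 5.29, limma adjusted p = 0.211). Its dense CpGs, which include the island printed above, received 0 and 0 calls in control and 49 and 83 calls in Dnmt1 KO, of which 0 and 1 were methylated. Its sparse CpGs were at 83.3% and 86.6% in control and 85.2% and 71.9% in Dnmt1 KO, overlapping groups. Tiles at AI846148, Yipf5, Setbp1 and Rnaset2a were alike in that dense CpGs had 0 to 7 calls per control library and 22 to 126 per Dnmt1 KO library. Of these 5 tiles, that of Rnaset2a, a ribonuclease gene on chromosome 17, had the largest difference at sparse CpGs, with 90% and 93.1% in control and 50% and 45.2% in Dnmt1 KO over 14 to 31 calls.

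For a smaller loss the 5 tiles were of different kinds. The tile at Dap, a gene of a death-associated protein (chr15:31150001-31160000), was at 38.1% and 35.6% in control and 83.1% and 72.5% in Dnmt1 KO, with 40 and 42 calls at dense CpGs in control and none in Dnmt1 KO, the reverse of the Zfp821 tile. Its sparse CpGs differed by 1.54 points. As3mt, the gene of an arsenic methyltransferase (chr19:46780001-46790000), had no dense CpG and had sparse CpGs at 51.4% and 57.1% in control and 85.1% and 80.0% in Dnmt1 KO (whole tile, matched difference 37.7 points, limma adjusted p = 0.211). The other 3 were repeat tiles on chromosomes 2 and 9 with small differences, of which those at Gm10722 and at Gm10801 and Gm10800 had the smallest p of all. The tile at Gm10722 (chr9:3000001-3010000) was at 82.8% and 81.4% in control and 77.6% and 77.97% in Dnmt1 KO, a matched difference of 2.13 points (SE 0.198, limma adjusted p = 0.0588), and the tile at Gm10801 and Gm10800 (chr2:98500001-98510000) had 1.33 points (SE 0.127, adjusted p = 0.0588) over 359314 to 452687 calls per library. The test is weighted by calls, so these SEs fall with the number of reads and do not measure the spread between libraries alone. Relative to all other CpGs, the repeats lay inside the range of the 9 controls (exact permutation p = 0.727). At 100 kb the same repeats led (adjusted p = 0.239), and Tcfl5, Nrf1 and Trnt1 marked tiles that were higher by 8.26 to 12.2 points over all CpGs and by -3.25 to 0.575 at sparse CpGs. On the side of a larger loss the 100 kb tiles at Rnaset2a, Zfp658, Cthrc1, Erlin2 and Slit1 differed by -17.4 to -26.2 points over all CpGs and by -11.0 to -18.2 at sparse CpGs, where Rnaset2a (chr17:8300001-8400000) went from 90.1% and 84.01% to 67.6% and 70.2%.

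Of 22350 protein-coding gene bodies, 12563 had at least 50 calls in each library. The median difference was -6.34 points, 84.2% were lower, and 1630 were called, 1618 lower and 12 higher, which is 13.0%. There were 291 calls without control replicate 1, 781 without Dnmt1 KO replicate 1 and 983 without Dnmt1 KO replicate 2, 514 with the 4 day 1 libraries alone and 10 with limma on the percent. None passed in the matched test, in which 680 (5.47%) had an unadjusted p under 0.05. Without control replicate 1 there were 9 gene bodies that passed, and without control replicate 2 there was 1. The 10 with the lowest p for a larger matched loss were Itpkc, Ppp1r12c, Slc12a9, U2af1, Zfp365, Tbrg4, Qars, Rela, 9030425E11Rik and AI846148, all at an adjusted p of 0.863 in limma. Itpkc, an inositol phosphate kinase gene, was at 80.7% and 88.0% in control and 39.7% and 46.6% in Dnmt1 KO, and at sparse CpGs at 85.7% and 88.7% against 76.4% and 63.2%. U2af1, a splicing factor gene, was at 63.5% and 63.3% against 32.7% and 33.6%, and Rela, an NF-kappaB subunit gene, at 80.4% and 84.8% against 36.1% and 52.7%. At sparse CpGs 9 of these 10 were lower, with differences of -5.61 to -21.9 points, and Tbrg4 was higher by 4.75 points over 13 to 29 calls per library.

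The gene bodies at the other end were Gm10800, which lies in the chromosome 2 repeat (matched difference 1.01 points, SE 0.112, limma adjusted p = 0.123), and Tcfl5, Psmd11, Mtx3, Lypd2, Rasgrp1, Prss23, Dnmt3a, Myef2 and Nucks1. The SE of Gm10800, weighted by calls, likewise falls with its number of reads. Tcfl5, a gene of a testis transcription factor, was at 41.2% and 43.3% in control and 70.5% and 82.1% in Dnmt1 KO, and at sparse CpGs at 82.4% and 78.1% against 78.8% and 77.9%. Psmd11, a proteasome subunit gene, was at 62.2% and 57.3% against 78.8% and 80.1%, and at sparse CpGs at 86.4% and 84.4% against 78.4% and 79.5%. Of the 9 genes other than Gm10800, sparse CpGs were lower in 7, with differences of -1.95 to -12.2 points, and higher in Mtx3 by 0.522 and in Nucks1 by 11.11 points. With sparse CpGs alone 3913 gene bodies of 9897 were called lower and 0 higher (39.5%), and 95.6% were lower by value. These calls too were not repeated with a library left out or with another model.

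**Figure D5:**
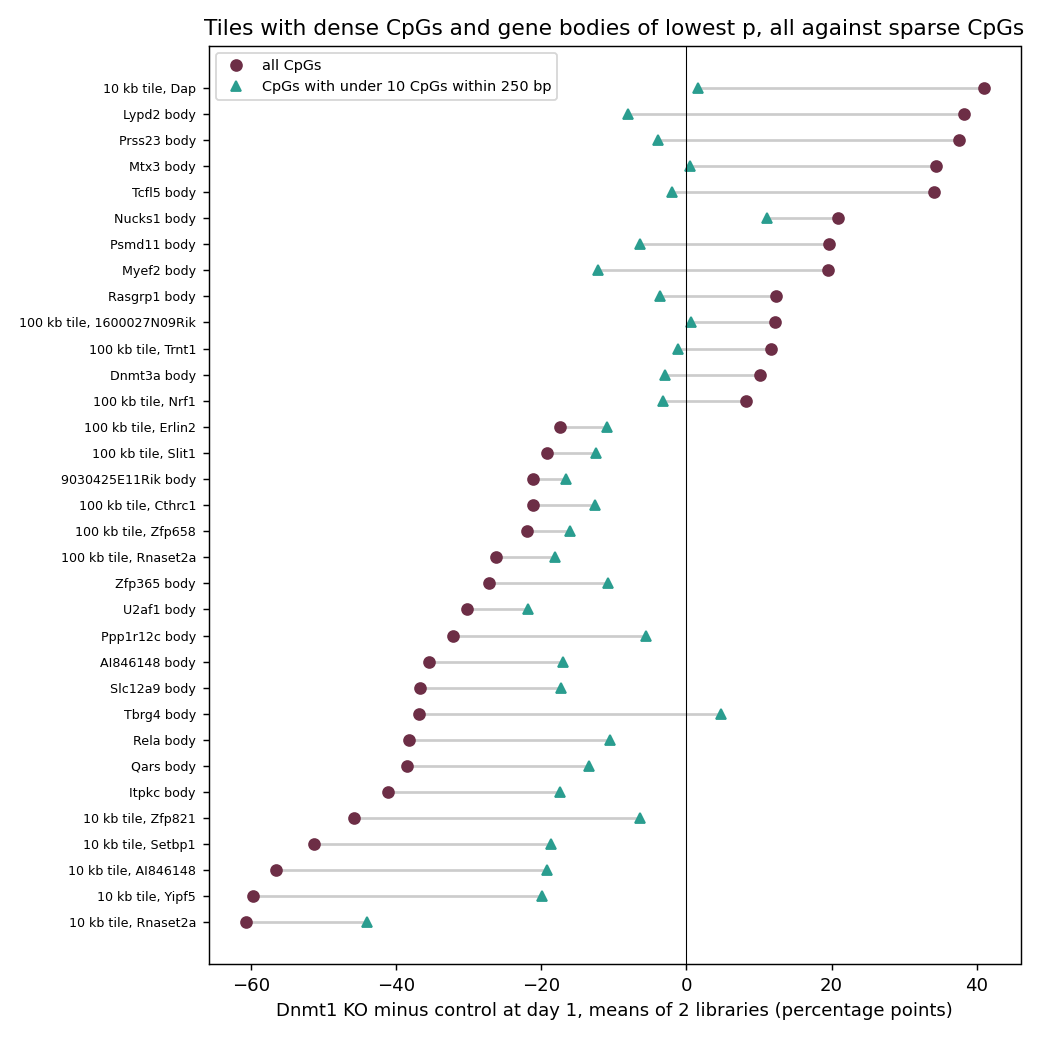
Dnmt1 KO minus control at day 1 (x axis, points, means of 2 libraries) for the tiles with dense CpGs and the gene bodies of lowest p in the matched tests (y axis), over all CpGs (circles) and over CpGs with under 10 CpGs within 250 bp (triangles). Differences of up to 60.8 points in size over all CpGs shrink or change sign at sparse CpGs, as at the Dap tile, from 40.9 to 1.54 points.

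The machinery of DNA methylation was itself read as 13 genes, 12 with enough calls. The median difference of their bodies was -5.04 points against -6.34 over all gene bodies, with 1 called lower and 1 higher where 13.0% of gene bodies were called. Tet3, one of the oxidizing enzymes, fell by 11.5 points (SE 3.08, adjusted p = 0.0172 in the quasi-binomial model), from 88.6% and 83.4% to 76.3% and 71.7%. Dnmt3a, a de novo methyltransferase, rose by 10.5 points (SE 3.22, adjusted p = 0.0322), from 62.4% and 55.2% to 72.9% and 65.1%. The share of its calls at sparse CpGs was 57.6% and 53.5% in control and 71.2% and 69.0% in Dnmt1 KO, and at sparse CpGs alone the level was 76.7% and 69.5% against 76.3% and 64.0%, a fitted difference of -2.85 points that did not pass (adjusted p = 0.399). The body of Dnmt1 differed by -8.78 points (adjusted p = 0.14), and the body of Uhrf1, the partner that guides it, was at 51.8% and 61.7% in control and at 67.02% and 39.1% in Dnmt1 KO, so that its replicates differed by more than its groups. Around the 13 starts of these genes the groups overlapped, at 13.4% and 8.84% in control and 12.2% and 7.59% in Dnmt1 KO.

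In the small RNA pathway 9 genes were tested, with a median of -9.44 points, and 2 were called lower, where 13.0% of all gene bodies were called. Dicer1, which cuts double-stranded RNA, fell by 9.44 points (SE 2.82, adjusted p = 0.0288), from 88.1% and 84.2% to 77.5% and 75.9%. Drosha, which cuts microRNA precursors in the nucleus, fell by 6.60 points (SE 2.17, adjusted p = 0.0447), from 80.3% and 81.0% to 73.7% and 74.3%, a call that was lost in 8 of 11 alternatives, among them sparse CpGs alone (adjusted p = 0.0502). At sparse CpGs 4 of 8 were called lower, where 39.5% of all gene bodies were, among them Eif2c2, the gene of AGO2, which fell by 8.27 points (adjusted p = 0.00869). Around 9 starts of these genes the level was 3.70% and 2.42% in control and 4.77% and 5.81% in Dnmt1 KO, higher in Dnmt1 KO without overlap, over 297 to 579 calls, and dense CpGs drew 57.6% and 74.1% of the calls in control and 68.7% and 53.2% in Dnmt1 KO.

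Of 16 germline genes tested, Tex14, needed for the bridges between germ cells, was called and fell by 9.19 points (SE 2.75, adjusted p = 0.0293), from 73.7% and 71.5% to 60.9% and 65.4%. This 1 call in 16 stands beside 13.0% of all gene bodies called. The list had a median of -8.95 points, 15 of 16 were lower by value where 84.2% of all gene bodies were, and at sparse CpGs 6 of 15 were called lower against 39.5% of all gene bodies. Within 1 kb of their 20 starts the pooled level was 48.6% and 39.4% in control and 58.6% and 45.1% in Dnmt1 KO, overlapping groups of 435 to 558 calls, so no loss was detectable there on day 1. Dense CpGs drew 56.8% and 59.9% of these calls in control and 40.2% and 61.0% in Dnmt1 KO, and the part of this in the levels was not tested.

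Of 15 imprinted genes tested, with a median of -7.11 points, 2 were called lower, close to the 13.0% of all gene bodies. Grb10, which encodes an adapter that restrains growth, fell by 13.5 points (SE 3.67, adjusted p = 0.0182), from 77.9% and 68.6% to 55.7% and 63.8%. Kcnq1, a potassium channel gene that hosts an imprinted noncoding RNA, fell by 7.11 points (SE 2.09, adjusted p = 0.0267), from 79.3% and 74.7% to 69.1% and 70.1%. Around the 21 starts of imprinted genes the level was 34.4% and 35.8% in control and 27.1% and 29.3% in Dnmt1 KO, groups that did not overlap, over 559 to 815 calls. Around all 22380 starts of protein-coding genes it was 20.04% and 18.9% in control and 18.7% and 18.1% in Dnmt1 KO. Dense CpGs drew 55.6% and 51.2% of the calls around imprinted starts in control and 61.8% and 52.9% in Dnmt1 KO, and the part of this in the difference was not tested. At sparse CpGs 6 of 11 bodies were called lower, against 39.5% of all gene bodies, including Igf2r, which fell by 11.5 points (adjusted p = 0.000689), and Plagl1, which fell by 16.2 points (adjusted p = 0.0026).

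Of 8 pluripotency genes tested, none was called in the quasi-binomial model, where 13.0% of all gene bodies were, and 7 were lower by value, against 84.2% of all gene bodies. Their median was -13.3 points, against -6.34 over all gene bodies. With sparse CpGs alone the medians were -8.92 points over the 2 genes tested and -7.35 over all gene bodies. At sparse CpGs Esrrb, an orphan nuclear receptor gene, was 1 of 2 tested and fell by 6.43 points (adjusted p = 0.0197), where 39.5% of all gene bodies were called. Over all 5 lists no body was called higher at sparse CpGs, as none was among all gene bodies. The 7 calls over all CpGs in these lists were lost with the 4 day 1 libraries alone and with limma on the percent, and each was lost without at least 1 library. Without control replicate 1 those of Tet3, Dicer1, Drosha, Tex14, Grb10 and Kcnq1 did not pass (adjusted p of 0.135 to 0.265), and without Dnmt1 KO replicate 1 those of Dnmt3a, Dicer1, Drosha, Tex14, Grb10 and Kcnq1 (0.0652 to 0.265). Without control replicate 2 those of Dnmt3a, Drosha and Tex14 did not pass (0.0554 to 0.279), and without Dnmt1 KO replicate 2 those of Tet3, Dicer1, Drosha and Kcnq1 (0.0708 to 0.123).

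At day 3, in other libraries of both genotypes, the relative loss was likewise ordered by flank and, but for 1 pair of steps, by density. It was 64.3% at lone CpGs, 60.8% at 2 to 3, 56.2% at 4 to 6, 53.1% at 7 to 9, 52.2% at 10 to 14, 52.4% at 15 to 24, 49.4% at 25 to 39 and 38.5% at 40 or more CpGs within 250 bp. By flank it was 58.5%, 55.3% and 53.4% with A or T on both sides, mixed flanks and C or G on both sides. The points lost at day 1 amounted to 16.4% of those lost at day 3 at lone CpGs, 16.1% at 4 to 6 CpGs, 14.1% at 15 to 24 and 12.3% at 25 to 39, and to 14.7% over all CpGs. At 40 or more CpGs, with a control level of 1.68% at day 1 and 1.56% at day 3, the share was 19.5%.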

How the data were processed

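WGBS libraries of mouse ESCs were analyzed, and samples were grouped by genotype and day from the labels alone. According to the methods, the authors used Trim Galore for trimming and Bismark for alignment to NCBIM37, removed duplicates and extracted CpG calls. The Bismark version is 0.12.3 in the submitters' processing notes and another in the methods. The deposited tables hold counts of methylated and of unmethylated calls per cytosine and strand, and a deposited percent that equals their ratio. The counts were used, with no normalization, and 1.08% to 1.41% of the cytosines listed in a day 1 library had 3 calls or more, the minimum that the methods set for averaging single CpGs. Listed cytosines outside a CpG of the reference, 0.101% to 0.120% per library, were left out, and strands were added up. Day 1 libraries held 9358771 to 10881547 calls.

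Classes used GENCODE models of the same build. Tiles of 10 kb and 100 kb and gene bodies needed at least 10, 100 and 50 calls in each day 1 library. They were tested in R 4.3.3 by a quasi-binomial model over all 18 libraries, with dispersion moderated by limma 3.58.1. The matched test applied limma, weighted by calls, to the deviation from features of the same starting level (bins of 2 points, pooled controls of days 3, 6 and 9) in the 4 day 1 libraries. Both used Benjamini-Hochberg adjustment. They were also run on simulated calls with 1 fixed dispersion and no shift of whole libraries. The fitted median dispersions were 1.63 for 10 kb tiles, 2.06 for 100 kb tiles and 2.79 for gene bodies. The simulation therefore does not show how the tests behave at the spread of these data. Levels of classes were compared in exact permutation tests (Python 3.11.15, SciPy 1.17.1). Named tiles and genes are the 5 tiles and 10 genes of lowest p in each direction of the matched tests. The comparison, gene lists and classes were chosen with earlier results of these data known, and the sparse-only tests, ratios, fully methylated CpGs and tandem repeats were added after these data were examined. Alternatives covered coverage minima, cytosines with over 20 calls, each library left out, a replicate block, shifted tiles, windows of 50 CpGs, limma on percent, other control sets, other class limits and other starting levels. Replicate numbers are shared by the genotypes, but no label says that same-numbered libraries are pairs, and they were not taken as such. Their deviations over 100 kb tiles correlated at 0.00669. At this depth such a value cannot show whether they were paired. Calls of the replicates of a group differed by more than counting noise (chi-square per tile 3.53 and 8.10). Repeat annotation was not used here.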

Additional observations from a re-analysis of the deposited data

How the results depend on the processing

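Leaving out each day 1 library gave an autosomal difference of -7.30 to -4.72 points, with an exact permutation p of 0.2 without either Dnmt1 KO library, where a lone library cannot reach a smaller p, and the 7 controls of days 1 to 9 gave -6.52 points at p = 0.0556. No class of CpGs passed under any alternative, which says little, since no class can pass against 7 controls or without a Dnmt1 KO library. The 84 calls at 10 kb became 43 with at least 20 calls, 4 with limma on the percent, 51 in windows of 50 CpGs, 115 with the 4 day 1 libraries alone, 15 with sparse CpGs alone and 74 to 143 with a library left out. The matched 10 kb test, with 0 calls, gave 2 each with at least 5 calls, with the starting level from day 3 and with shifted tiles, and 0 to 223 with a library left out. The 6453 calls at 100 kb became 6 with the 4 day 1 libraries alone, 2 with limma on the percent, 13076 with sparse CpGs alone and 468 to 4328 with a library left out. The 1630 gene bodies became 514 with the 4 libraries alone, 10 with limma on the percent, 3913 with sparse CpGs alone and 291 to 1277 with a library left out, and the matched gene test gave 0 to 9. The matched 100 kb test gave 0 under every alternative. The causes were not tested.

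Whether same-numbered libraries are pairs is not known. With a replicate block there were 54 calls at 10 kb, 48 in the matched 10 kb test, 5318 at 100 kb and 1409 gene bodies. Of the values of named genes, tiles and classes that had passed, 1 reversed, Dnmt3a, at -2.85 points with sparse CpGs alone, and 35 under alternatives no longer passed, while 60 passed newly. The other 1462 stayed on their side of the threshold, of which 1387 kept their direction and 75, among them 48 of classes, changed sign without passing. Depth of 1.21 to 1.24 calls per listed cytosine does not allow single CpGs to be compared.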
